A study of Mus musculus with 69 samples.

Results

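Transcripts of the airway and lung epithelium were followed in RNA from mouse hearts. The members were named by gene symbol: Scgb1a1, Bpifa1, Scgb3a1, Scgb3a2, Foxj1, Sftpa1, Sftpb, Sftpc and Sftpd. Of these 9 genes, 8 had a probe set in the annotation used here, out of 17097 gene symbols that were annotated singly on the array. Sftpb was the member without one. The members were chosen by measured values: their levels on these 69 arrays, the correlations among them and the share of arrays with Scgb1a1 above a log2 value of 8. All member values below are therefore descriptions and carry no test.

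The hearts came from adult male CD-1 mice of 20 to 35 g that were not anaesthetised. Potassium cyanide (KCN) was given under the skin at 8.0 mg/kg, and its control was an equal volume of saline, and those hearts were collected after 1, 2, 4, 8 and 24 h. Mice of the other arm breathed hydrogen cyanide (HCN) at 327 ppm through the nose, or air, and were followed to 1, 2, 4 and 24 h. Each of the 18 groups held 4 arrays, except KCN 4 h, saline 2 h and saline 4 h with 3 each. That gave 19 KCN, 18 saline, 16 HCN and 16 air arrays, each treated as 1 mouse because the labels number biological replicates. Nothing in the labels describes how the hearts were dissected or whether they were rinsed.

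Scgb1a1 encodes the main secreted protein of club cells, the non-ciliated secretory cells of the airway lining. Scgb3a1 and Scgb3a2 are related small secreted proteins of the airways, and Bpifa1 (also called SPLUNC1) is a secreted antimicrobial protein of the upper airway surface. Foxj1 is the transcription factor that switches on motile cilia. Sftpc, a hydrophobic surfactant protein, is made by alveolar type 2 cells, while the surfactant collectins Sftpa1 and Sftpd are made by type 2 cells and by club cells. None of these genes is known as a product of cardiomyocytes.

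Promoters were available for 3 of the members, and they are shown because these genes were high on largely the same arrays. Each runs from 250 bases before to 50 bases after the gene's start, on the plus strand of GRCm38.p6 from RefSeq: Bpifa1 at chr2:154142630-154142929, Scgb3a1 at chr11:49663345-49663644 and Sftpa1 at chr14:41131538-41131837. Capitals mark matches on either strand to CTCAAG (reverse complement CTTGAG), a core of the lung and thyroid factor NKX2-1, to the forkhead sequences TATTTAC and TGTTTAC, and to the TATA box sequence TATAAA.
Bpifa1: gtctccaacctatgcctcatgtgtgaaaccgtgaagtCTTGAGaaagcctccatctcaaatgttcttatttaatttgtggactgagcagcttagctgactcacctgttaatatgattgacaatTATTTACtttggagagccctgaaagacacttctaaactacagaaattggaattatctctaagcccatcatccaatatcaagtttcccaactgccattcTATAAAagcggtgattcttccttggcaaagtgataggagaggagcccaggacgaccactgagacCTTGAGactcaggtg
Scgb3a1: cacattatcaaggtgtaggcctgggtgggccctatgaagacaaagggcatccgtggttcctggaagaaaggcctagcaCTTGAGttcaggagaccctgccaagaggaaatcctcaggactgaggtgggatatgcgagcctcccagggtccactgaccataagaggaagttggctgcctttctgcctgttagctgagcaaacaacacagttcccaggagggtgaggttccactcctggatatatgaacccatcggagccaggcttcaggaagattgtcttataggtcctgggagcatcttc
Sftpa1: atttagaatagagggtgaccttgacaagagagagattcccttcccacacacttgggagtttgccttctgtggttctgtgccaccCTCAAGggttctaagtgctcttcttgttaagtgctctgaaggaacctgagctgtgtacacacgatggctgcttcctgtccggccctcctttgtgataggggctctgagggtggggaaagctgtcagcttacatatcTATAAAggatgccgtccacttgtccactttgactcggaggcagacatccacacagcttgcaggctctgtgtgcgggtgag
CTCAAG was found in all 3 windows, with 2 matches in Bpifa1 and 1 each in Scgb3a1 and Sftpa1, and in 15.9% of 32851 promoter windows of the same length. TATAAA was found in Bpifa1 and Sftpa1 and in 13.6% of all windows. Bpifa1 alone of the 3 held TATTTAC, which was in 3.04% of all windows, and none held TGTTTAC, which was in 3.65%. These matches describe the letters and do not show binding.

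The tissue label was borne out by the cardiomyocyte genes. Myl2, the ventricular myosin light chain, read 13.34 to 13.72 (log2 signal) over all 69 arrays, and cardiac actin Actc1 read 13.32 to 13.69. Arrays correlated with one another at 0.968 to 0.995 over probe sets. The injection and inhalation arrays had separate value distributions, with median 95th percentiles of 9.24 and 9.51, so levels were compared within a route. The number of arrays limits the precision, and in whole tissue fewer cells of a type and less RNA per cell cannot be told apart.

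Scgb1a1 was either near the bottom of the scale or near its top, with few values between. It read 8.06 to 12.85 on 43 arrays and 2.54 to 5.33 on the other 26. The lowest value above 8 was 8.06 (HCN 2 h replicate 4) and the highest below it was 5.33 (air 1 h replicate 4). It was above 8 on 15 of 19 KCN arrays (78.9%) and on 3 of 18 saline arrays (16.7%). After inhalation it was above 8 on 12 of 16 HCN arrays (75%) and on 13 of 16 air arrays (81.2%).

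No saline array was high at the first 3 times after injection. At 1 h Scgb1a1 read 11.30, 10.99, 11.36 and 11.99 in KCN hearts, against 3.08, 2.54, 3.05 and 2.98 in saline hearts. At 2 h it read 3.12, 12.27, 2.98 and 11.64 in KCN hearts, against 2.57, 2.79 and 2.76 in saline hearts. The groups did not overlap, but the KCN 2 h group itself was split, with 2 arrays at the saline level. At 4 h the values were 9.69, 12.07 and 10.95 in KCN hearts, against 2.88, 3.22 and 2.89 in saline hearts. None of the 10 saline arrays of 1 to 4 h was above 8. The difference in means, KCN minus saline, was 8.50 at 1 h, 4.80 at 2 h and 7.91 at 4 h, and at 2 h it was 3.21 without KCN replicate 2.

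At the later times saline hearts also held high arrays. At 8 h Scgb1a1 read 3.11, 10.87, 12.05 and 12.53 in KCN hearts, against 11.18, 11.43, 2.60 and 2.86 in saline hearts. At 24 h it read 11.34, 12.03, 10.13 and 2.90 in KCN hearts, against 3.04, 2.61, 9.51 and 2.66 in saline hearts. The 2 exposures overlapped at both times, and 3 of the 8 saline arrays were above 8. The difference in means was 2.62 at 8 h, between 9.64 ± 4.41 and 7.02 ± 4.96 (SD, n = 4 each), smaller than the spread of either group. Leaving out the third saline array lowered it to 1.15, and leaving out the first KCN array raised it to 4.80. At 24 h the difference was 4.64, close to that at 2 h.

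**Figure D1:**
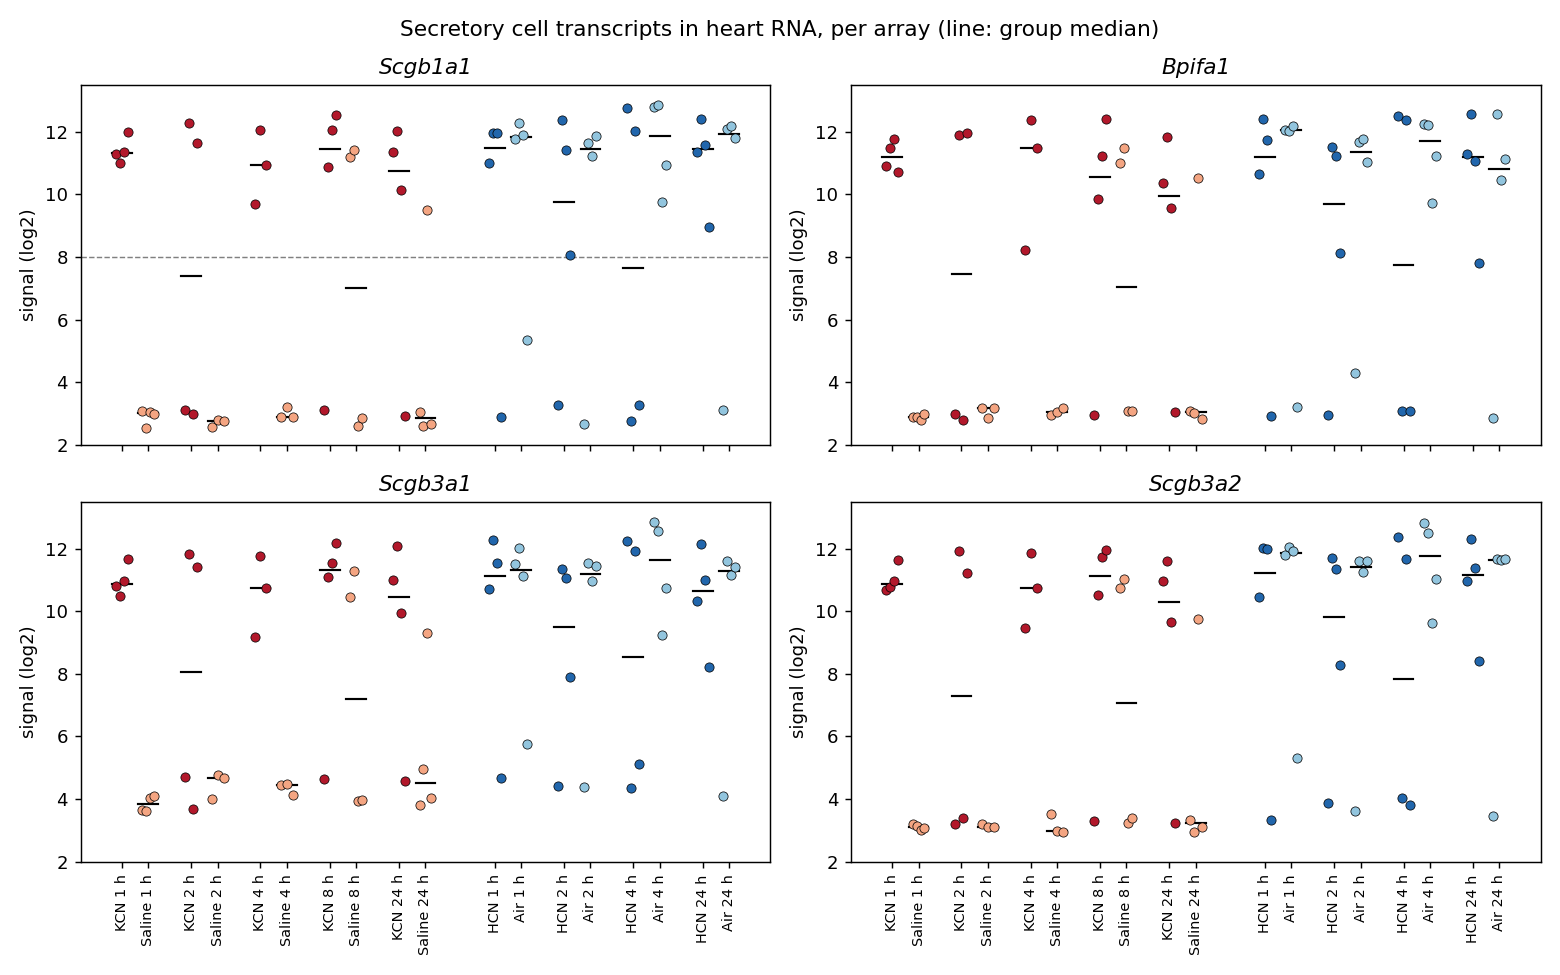
Signal (log2) of Scgb1a1, Bpifa1, Scgb3a1 and Scgb3a2 on each of the 69 arrays, by group; points are arrays, short lines are group medians, and the dashed line marks 8 for Scgb1a1. The same arrays are high in all 4 panels, and the 10 saline arrays of 1 to 4 h are low in all 4.

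After inhalation both the HCN and the air groups held mostly high arrays. At 1 h Scgb1a1 read 10.99, 11.98, 11.98 and 2.89 in HCN hearts, against 11.76, 12.29, 11.90 and 5.33 in air hearts. At 2 h it read 3.27, 12.38, 11.43 and 8.06 in HCN hearts, against 2.67, 11.65, 11.23 and 11.86 in air hearts. In each of these groups 3 of 4 arrays were above 8. At 4 h the values were 12.77, 2.75, 12.03 and 3.26 in HCN hearts, against 12.81, 12.85, 9.76 and 10.94 in air hearts. At 24 h they were 11.34, 12.40, 11.57 and 8.96 in HCN hearts, against 3.10, 12.09, 12.17 and 11.79 in air hearts. HCN and air overlapped at each of the 4 times. The difference in means of HCN minus air ranged between -3.89 at 4 h (7.70 ± 5.44 against 11.59 ± 1.51) and 1.28 at 24 h (11.07 ± 1.48 against 9.79 ± 4.46, SD, n = 4 each). Single arrays decided these values: at 24 h the difference was -0.95 without air replicate 1, and at 4 h it was -2.24 without HCN replicate 2 and -5.58 without HCN replicate 1.

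**Figure D2:**
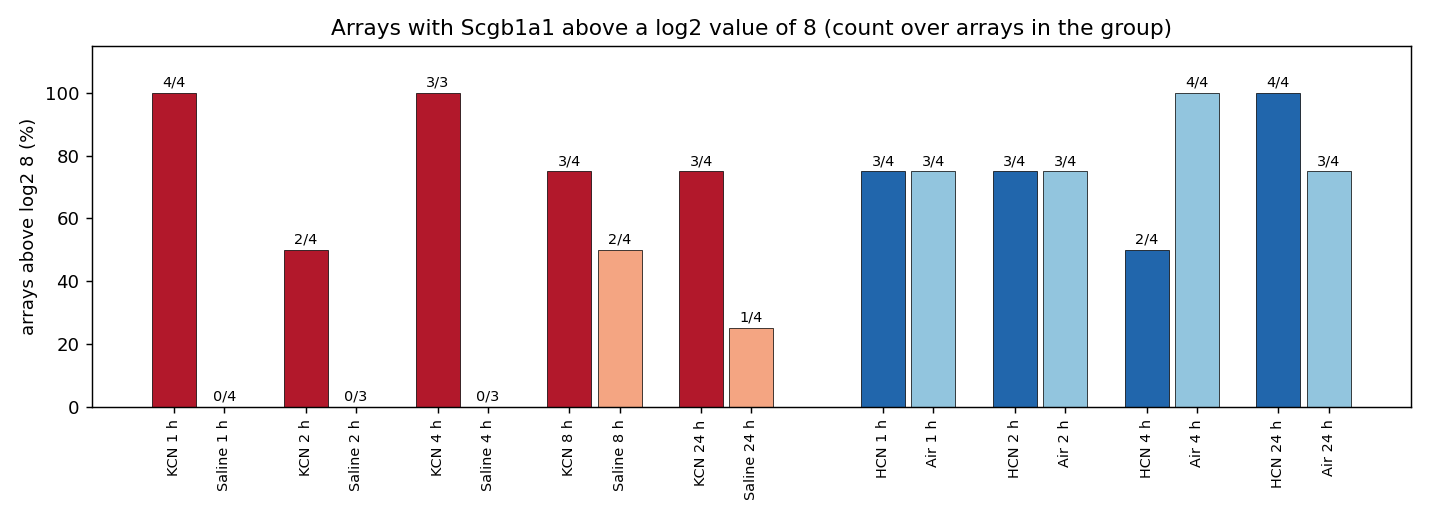
Percent of arrays in each group with Scgb1a1 above a log2 value of 8, with the count over the number of arrays printed above each bar. Saline groups of 1, 2 and 4 h are at 0, and the 8 inhalation groups lie between 50% and 100%.

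Ordered by median level, air read 11.77, HCN 11.39, KCN 11.30 and saline 2.88. The first 3 had ranges that lay over one another almost completely (2.67 to 12.85 in air, 2.75 to 12.77 in HCN and 2.90 to 12.53 in KCN), and saline also reached 11.43. The order of the first 3 is therefore not resolved, and it also crosses the route difference in scale noted above.

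The other secretory members were high on the same arrays. An array was counted as raised for a gene when it read at least 2 log2 units (4-fold) above that gene's own lowest array. That lowest array could be of either route, so counts of raised arrays cross the route difference in scale noted above. All 4 secretory members were raised on 43 arrays and none on 25. The remaining array, air 1 h replicate 4, had 3 of them raised, with Scgb1a1 at 5.33, Scgb3a1 at 5.76 and Scgb3a2 at 5.30, and with Bpifa1 at 3.21.

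Bpifa1 read 7.80 to 12.58 where Scgb1a1 was above 8, and 2.78 to 4.29 elsewhere. Scgb3a1 read 7.89 to 12.86 where Scgb1a1 was above 8, and 3.63 to 5.76 elsewhere. Scgb3a2 read 8.28 to 12.81 where Scgb1a1 was above 8, and 2.94 to 5.30 elsewhere. For each of the 3 genes there was a gap without any array between its low and its high values.

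At 1 h after injection the 4 genes showed the same order of groups. Bpifa1 read 10.92, 11.49, 11.77 and 10.73 in KCN hearts, against 2.89, 2.88, 2.80 and 2.97 in saline hearts. Scgb3a2 read 10.68, 10.76, 10.97 and 11.65 in KCN hearts, against 3.21, 3.15, 3.01 and 3.08 in saline hearts. Scgb3a1 read 10.81, 10.48, 10.96 and 11.67 in KCN hearts, against 3.64, 3.63, 4.02 and 4.11 in saline hearts. The differences in means were 8.34 for Bpifa1, 7.90 for Scgb3a2 and 7.13 for Scgb3a1, each with no overlap between the groups. At 2 h the groups overlapped for Bpifa1, with KCN down to 2.78 and saline at 2.85 to 3.18. They also overlapped for Scgb3a1, with KCN down to 3.68 and saline at 3.99 to 4.76. For Scgb3a2 they did not, with KCN down to 3.20 and saline up to 3.19. The share of all probe sets without overlap is not given, for these or the other members. At 1 h the adipocyte sum and the actin 3' to 5' difference described below also had no overlap between KCN and saline.

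Within the 43 arrays above 8 the secretory members also varied together. Pearson's r over the 6 pairs was 0.856 to 0.975 and Spearman's rho 0.751 to 0.932. Without the 2 arrays farthest from the median, r was 0.772 to 0.963. It was 0.745 to 0.979 in the 18 injection arrays above 8 and 0.895 to 0.978 in the 25 inhalation arrays. On the 26 arrays not above 8, rho was -0.0906 to 0.316. These correlations describe arrays that share scale and labelling, and they carry no p because the rule used them.

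The surfactant members followed the same arrays but over fewer of them. Sftpa1 was raised on 38 arrays, Sftpd on 24 and Sftpc on 13, and on each of these Scgb1a1 was above 8. Sftpa1 read 3.61 to 9.38 where Scgb1a1 was above 8, and 2.60 to 3.24 elsewhere. A second probe set of Sftpa1 was dimmer, was raised on 5 arrays, and ran between 2.28 and 6.01. Counts by the 4-fold rule therefore depend on the probe set.

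On the brighter Sftpa1 probe set, KCN and saline hearts did not overlap at 1 h and 4 h. At 1 h it read 6.27, 5.57, 5.92 and 8.68 in KCN hearts, against 3.10, 3.20, 2.70 and 2.86 in saline hearts. At 4 h it read 4.12, 7.65 and 5.87 in KCN hearts, against 3.09, 3.22 and 2.89 in saline hearts. The difference in means was 3.65 at 1 h and 2.81 at 4 h. At 24 h in the inhalation arm it read 4.98, 9.38, 6.34 and 3.61 in HCN hearts, against 2.91, 6.98, 7.53 and 6.59 in air hearts, with overlap. On the second probe set KCN and saline overlapped at 1 h, at 2.80 to 4.84 against 2.34 to 2.82. They did not overlap there at 4 h, at 2.52 to 3.38 against 2.33 to 2.43.

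Sftpd, the other collectin, had a narrower range. It read 3.34 to 7.67 where Scgb1a1 was above 8, and 2.71 to 3.73 elsewhere. It was raised on 5 KCN arrays, no saline array, 8 HCN arrays and 11 air arrays. The value nearest to the 4-fold limit on each side was 4.73 inside and 4.69 outside, so its count rests on a limit that cuts through continuous values.

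**Figure D3:**
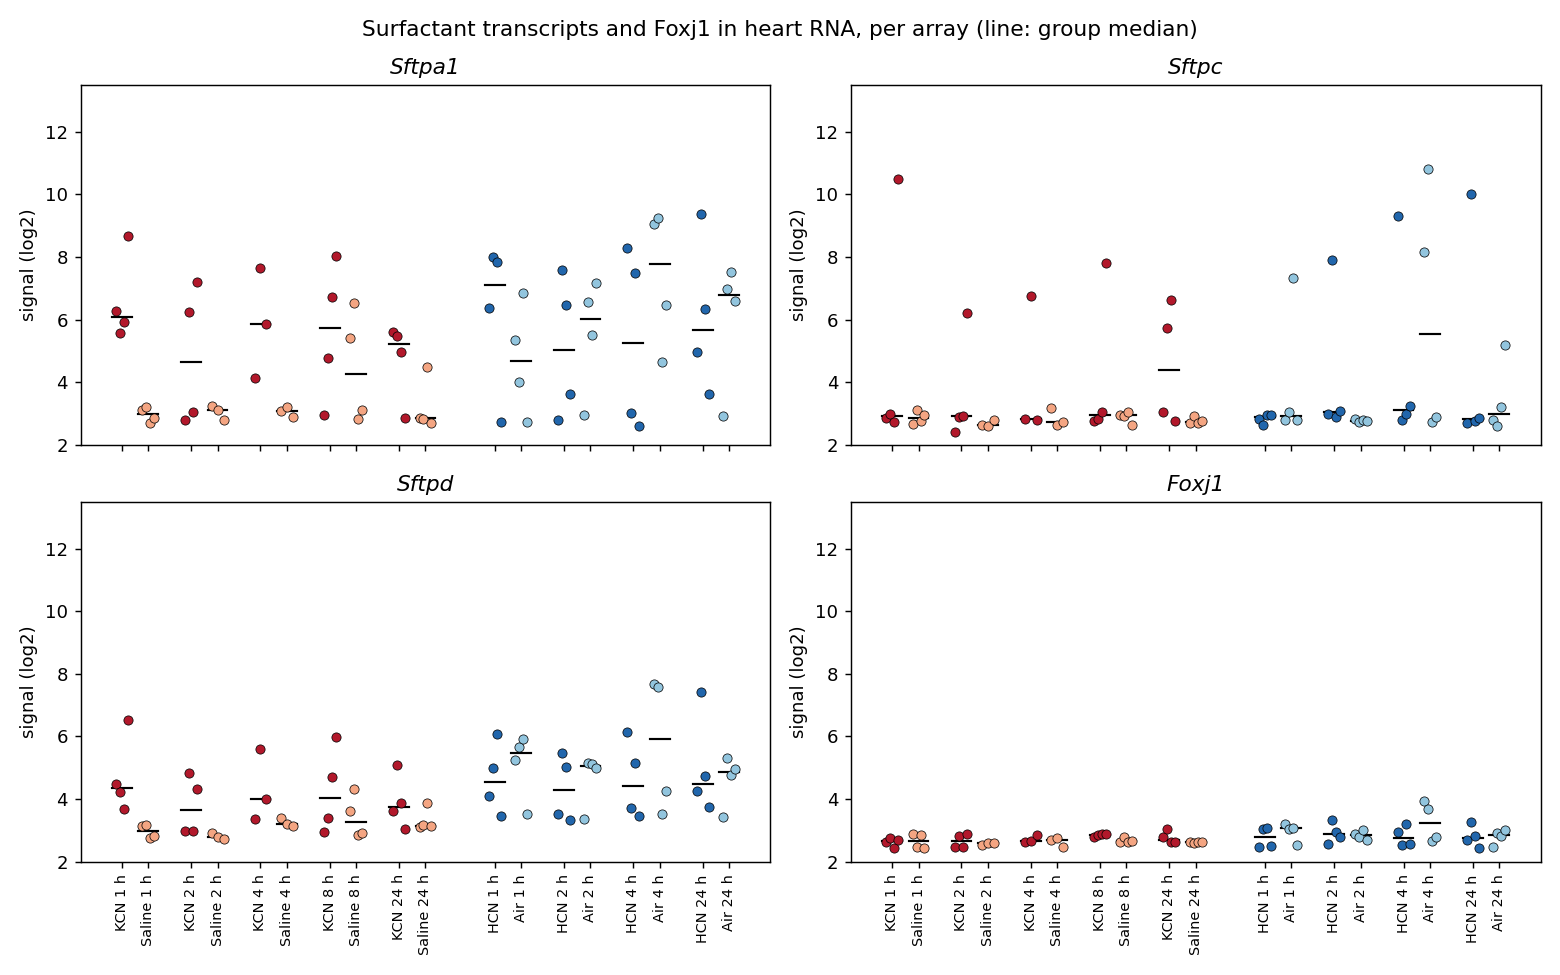
Signal (log2) of Sftpa1, Sftpc, Sftpd and Foxj1 on each of the 69 arrays, by group; points are arrays and short lines are group medians. Sftpc is near 3 on 56 arrays and between 5.20 and 10.82 on 13, and Foxj1 stays between 2.42 and 3.95.

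Sftpc was on or off. It lay between 2.40 and 3.23 on 56 arrays and between 5.20 and 10.82 on 13, of which 6 were KCN, none saline, 3 HCN and 4 air. In KCN hearts the raised arrays read 10.48 (1 h), 6.21 (2 h), 6.76 (4 h), 7.80 (8 h), and 5.72 and 6.63 (both 24 h), against 2.59 to 3.16 on all 18 saline arrays. In HCN hearts they read 7.91 (2 h), 9.30 (4 h) and 10.02 (24 h), against 7.34 (1 h), 8.16 and 10.82 (both 4 h) and 5.20 (24 h) in air hearts. In 9 of the groups with a raised array it was a single array, and in KCN 24 h and air 4 h there were 2.

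A high Scgb1a1 did not bring a high Sftpc. Sftpc was at its low level on 30 of the 43 arrays with Scgb1a1 above 8. At KCN 1 h, where Scgb1a1 read 10.99 to 11.99, Sftpc read 2.87, 2.98 and 2.73 on replicates 1 to 3 and 10.48 on replicate 4. At saline 8 h, where replicates 1 and 2 read 11.18 and 11.43 for Scgb1a1, Sftpc read 2.96 and 2.93. Over the 43 arrays r between Scgb1a1 and Sftpc was 0.462 and rho 0.512, and r without the 2 farthest arrays was 0.507. For Scgb1a1 with Sftpa1 these were 0.785, 0.772 and 0.747, and with Sftpd 0.755, 0.861 and 0.789.

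**Figure D4:**
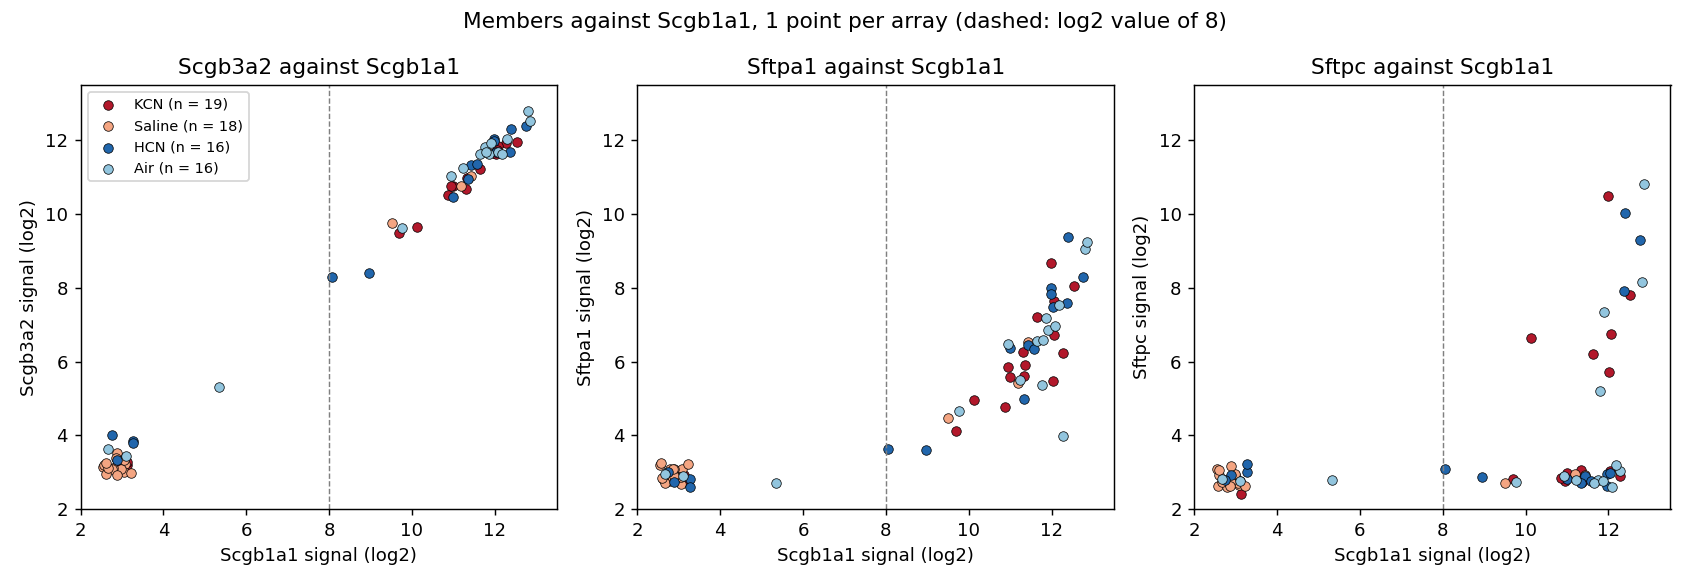
Signal (log2) of Scgb3a2, Sftpa1 and Sftpc against that of Scgb1a1, 1 point per array, coloured by exposure; the dashed line marks a Scgb1a1 value of 8. Scgb3a2 lies along a line, Sftpa1 fans out above 8, and Sftpc is low on 30 of the 43 arrays right of the line and between 5.20 and 10.82 on the other 13.

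Foxj1 stayed near the bottom of the scale on all 69 arrays. It read 2.42 to 3.95, and no array was raised by the 4-fold rule. Its 2 highest values, 3.95 and 3.68, were on air 4 h replicates 1 and 2, which read 12.81 and 12.85 for Scgb1a1. Over the 43 arrays with Scgb1a1 above 8, r with Scgb1a1 was 0.575 and rho 0.669 (r without the 2 farthest arrays 0.619), within a total range of 1.53 log2 units.

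Outside the members, the genes most like Scgb1a1 were mostly products of airway secretory cells. Likeness was the Pearson r of deviations from group means over the 69 arrays, among tested probe sets with 1 symbol. The members themselves had r of 0.997 (Scgb3a2), 0.993 (Scgb3a1), 0.985 (Bpifa1) and 0.871 (Sftpa1) with Scgb1a1 and were left out of the ranking. The 12 other genes most like it were Cyp2f2 (0.983), Wfdc2 (0.956), Reg3g (0.940), Cyp2a5 (0.940), Sec14l3 (0.938), Ltf (0.931), Bpifb1 (0.919), Lypd2 (0.875), AU040972 (0.840), Sult1d1 (0.831), Cxcl17 (0.814) and Cbr2 (0.812). Cyp2f2 is the cytochrome P450 of mouse club cells, Reg3g an antimicrobial lectin, Ltf lactoferrin, and Bpifb1 a relative of Bpifa1. Since the arrays fall into a high and a low cluster, r within the 43 arrays above 8 was also taken, and for these 12 genes it was 0.851 to 0.966.

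Cyp2f2 is described as the gene ranked first for likeness to Scgb1a1 on these same arrays, so its agreement with Scgb1a1 follows from that choice. At 1 h it read 8.39, 8.21, 8.53 and 9.44 in KCN hearts, against 2.68, 3.11, 2.78 and 3.02 in saline hearts. At 4 h it read 11.08, 2.71, 10.11 and 2.91 in HCN hearts, against 11.46, 10.86, 7.70 and 9.28 in air hearts. The 2 low HCN arrays, replicates 2 and 4, were the 2 with low Scgb1a1. Cyp2f2 was raised on 43 arrays, and Scgb1a1 was above 8 on each of them.

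Outside the members, the genes most like Sftpc were led by genes of the alveoli, while Sftpd, left out of the ranking as a member, had r of 0.764. Cxcl15, a chemokine of the mouse lung, had r of 0.888 (on its dimmer probe set), Ager, a receptor of alveolar type 1 cells, 0.884, and Slc34a2, a phosphate transporter of type 2 cells, 0.797. The other 9, at 0.706 to 0.795, were Chil1, Cldn10, Calml4, Rnf186, Mal2, Slc39a4, Cdh1, Wwc1 and Pifo. Ager was raised on 6 arrays, which read 7.37 and 5.06 in KCN hearts (1 h and 8 h), 7.36 and 8.69 in HCN hearts (4 h and 24 h), and 5.34 and 9.13 in air hearts (both 4 h). Sftpc was raised on each of those 6. Because most arrays were low for these genes, the r values rest on few arrays, and Spearman's rho was lower, at 0.557 to 0.787 over the same 12. Within the 43 arrays with Scgb1a1 above 8, r with Sftpc was 0.552 to 0.878 and rho 0.248 to 0.659. For Slc34a2 rho was 0.272 there.

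Lists of 67 other airway and lung epithelium genes were counted by the same 4-fold rule. The share of all probe sets raised by that rule is not given here. No count of raised genes in a list, here or below, is therefore read against a background. Of 15 club and secretory genes, 14 were raised on at least 1 array. Cyp2f2, Reg3g and Ltf were raised on 43 each, Sec14l3 on 42, Cbr2 on 40 and Bpifb1 on 39. Sult1d1 was raised on 35 and Pigr, the immunoglobulin transporter of epithelia, on 24. Cbr2 read 7.39 to 11.72 over all arrays, and Scgb1a1 was not above 8 on 2 of its raised arrays. The gel-forming mucin gene Muc5b was raised on 3 arrays and Muc5ac on none. Of 16 ciliated cell genes with a probe set, 5 were raised on any array, Cfap126 on 10, Rsph1 on 5, Pifo on 3 and Dnai1 and Lrrc23 on 2 each. The raised arrays of these 5 ciliated genes all had Scgb1a1 above 8, and so did 42 of the 43 Ltf arrays.

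The alveolar lists held a few genes raised on many arrays and more raised on few or none. In the type 2 list Wfdc2 was raised on 42 arrays, Cxcl15 on 17, Muc1 on 5, Slc34a2 on 4, Cldn18 on 2 and Etv5 on 1, with 6 of 12 genes on none. Wfdc2 was among the 12 genes most like Scgb1a1 and not among the 12 most like Sftpc. In the type 1 list, Aqp5, a water channel, was raised on 15 arrays, Spock2 on 8, Ager on 6 and Gprc5a on 2, with 4 of 8 genes on none. Scgb1a1 was not above 8 on 3 of the Spock2 arrays and on 1 of the Gprc5a arrays. These counts depend on the lowest level of each probe set, and differences between lists were not tested. Of the transcription factors, Foxa1 was raised on 16, Grhl2 on 6 and Sox2 on 3, while Nkx2-1 read 2.52 to 3.13 throughout. A transcription factor is commonly a low-level transcript, and a probe set near the bottom of the scale does not show its absence.

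**Figure D5:**
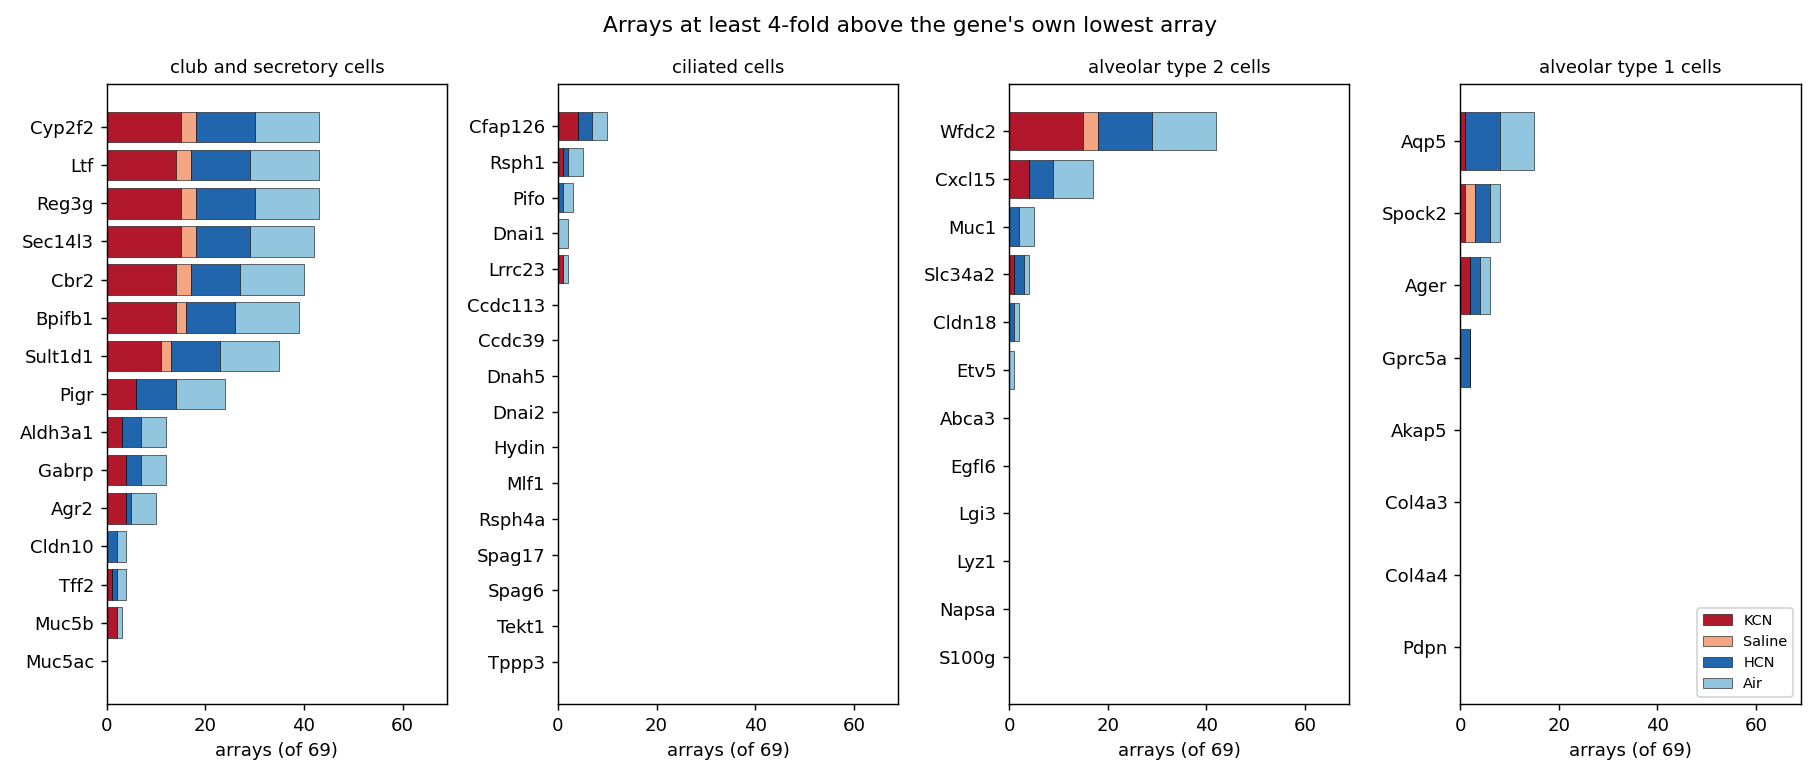
Number of arrays (of 69) on which each gene of 4 lists read at least 4-fold above its own lowest array; bar segments are KCN, saline, HCN and air arrays. In the club and secretory list 8 genes reach 24 or more arrays, while in the ciliated list the highest count is 10.

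The same lists were tested between groups, which asks whether other epithelial genes changed with exposure. These were limma tests on all 26755 probe sets that passed a filter on dim values, with Benjamini-Hochberg adjustment over them, and 41 of the 67 genes were tested. At KCN 1 h, 1 of 41 rose and none fell, where 4.09% of all tested probe sets were called, 1.57% higher and 2.53% lower. The gene was Sec14l3, a lipid-binding protein, which read 8.27, 8.05, 8.44 and 9.15 in KCN hearts, against 3.61, 3.57, 3.77 and 4.23 in saline hearts. Its log2 change was 4.68 ± 1.42 (SE, limma adjusted p = 0.0440), higher in 4 of 4 KCN arrays than in any saline array. The call was lost when any 1 of the 8 arrays was left out, and 13 genes were called in a fit of only these 2 groups. The fit over all groups pools the spread of groups in which Sec14l3 itself varied widely, with an SD of 0.145 in saline 4 h and 2.85 in air 1 h.

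At the other injection times few of the 41 genes were called. At KCN 2 h none rose and 1 fell, against a background of 6.59% (3.3% higher and 3.3% lower), and it was Rfx2, a ciliary transcription factor, at -0.60 ± 0.19 (limma adjusted p = 0.0428). At KCN 4 h limma called 0, against 2.26% of all (1.21% higher and 1.05% lower), with 5 higher and 0 lower at an unadjusted p under 0.05, and 3 were called in a fit of those 2 groups. At KCN 8 h limma called 0, against 0.336% of all (0.138% higher and 0.198% lower), with 2 higher and 0 lower at an unadjusted p under 0.05. At KCN 24 h, 2 rose and none fell, against 11.9% (6.79% higher and 5.14% lower). They were Abca3, a lipid transporter of type 2 cells, by 0.62 ± 0.16 (limma adjusted p = 0.00645), and Tppp3, by 0.54 ± 0.17 (adjusted p = 0.0296).

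The counts of calls were too small to read the list against the background. At an unadjusted limma p under 0.05, 11 were higher and 1 lower at KCN 1 h, 2 and 3 at KCN 2 h, and 5 and 0 at KCN 24 h. The share of all probe sets at that unadjusted limit, or called in the other fits here and below, is not given. Those counts are therefore not read against a background. Abca3 read 5.86 to 7.68 and Tppp3 7.33 to 9.03 over all arrays, without the split into low and high arrays seen for the members. The median log2 change of the 41 genes, KCN minus saline, was 0.65, 0.45, 0.58, 0.42 and 0.48 from the 1 h to the 24 h comparison. Over all tested probe sets the medians of these comparisons were between -0.02 and 0.02. The club and secretory list had the medians 1.51, 1.13, 1.71, 0.95 and 0.85 in the same order of times. A dim gene passed the filter through any 1 group where it was high, and list genes such as Cyp2f2 were high on the Scgb1a1 arrays. These medians, and those after HCN below, are therefore descriptions. They are not independent of the pattern by which the members were chosen.

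After HCN the calls were mixed in direction. At HCN 1 h limma called 0 of 41, against 2.68% of all (1.38% higher and 1.3% lower), with 1 higher and 1 lower at an unadjusted p under 0.05. At HCN 2 h, 1 rose and 2 fell, against 25.3% of all tested probe sets (8.8% higher and 16.5% lower). The actin 3' to 5' difference, a measure of RNA integrity, was 1.22 ± 0.611 in HCN hearts and 0.452 ± 0.143 in air hearts at that time, and its part in these calls was not tested. Gprc5a, a receptor found in lung epithelium, rose by 1.03 ± 0.23 (limma adjusted p = 0.000730), while Dnai1, a dynein chain of cilia, fell by 0.74 ± 0.20 (adjusted p = 0.00423) and Tppp3 fell by 0.48 ± 0.17 (adjusted p = 0.0329). At HCN 4 h Tppp3 alone fell, by 0.66 ± 0.17 (limma adjusted p = 0.0100), against 7.35% of all (2.87% higher and 4.48% lower), and the count reached 6 without air 4 h replicate 4. At HCN 24 h limma called 0, against 14.3% (5.08% higher and 9.25% lower), with 2 higher and 0 lower at an unadjusted p under 0.05. At an unadjusted limma p under 0.05, 3 were higher and 3 lower at HCN 2 h, and 0 higher and 6 lower at HCN 4 h. The medians of the 41 genes were -0.22, -0.11, -0.66 and 0.18 at 1, 2, 4 and 24 h.

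Markers of tissues around the heart were measured beside the members. Of 6 adipocyte genes with a probe set, 4 were raised on some array, and their summed level (log2) was 9.98 to 12.52 on arrays with Scgb1a1 above 8 and 8.70 to 11.94 on the others. Adipoq, the fat cell hormone, was raised on all 43 of the former arrays and on 20 of the 26 others. By exposure the adipocyte sum was 8.78 to 12.24 in KCN and 8.70 to 11.35 in saline, 9.71 to 12.35 in HCN and 10.30 to 12.52 in air. At 1 h it was 9.98 to 11.66 in KCN, against 8.84 to 9.76 in saline, with no overlap. The part of fat in the member values was not tested.

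Of 13 general epithelial genes, 9 were raised on some array. Keratin genes Krt18 and Krt8 were raised on 34 and 30 arrays (31 and 28 with Scgb1a1 above 8) and Epcam on 20 (19 with Scgb1a1 above 8), while Elf3, Esrp1, Spint1 and St14 had no raised array. The 13 genes together summed to 7.57 to 10.52 where Scgb1a1 was above 8 and to 7.03 to 9.77 elsewhere, and Krt19, an epithelial keratin, was raised on 37 arrays of the first kind and 5 of the second. These sums overlapped. Mesothelium, the lining of heart and lung, also expresses keratins, and its 5 genes summed to 7.14 to 9.25 where Scgb1a1 was above 8 and to 6.75 to 9.42 elsewhere. Upk3b, a mesothelial gene, was raised on 3 KCN, 1 saline, 15 HCN and 16 air arrays, and between routes these counts cross the difference in scale.

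Markers of further cell types gave mixed counts, and their part in the member values was not tested. Of 6 alveolar macrophage genes, 3 were raised on any array, and their sum was 5.64 to 8.71 where Scgb1a1 was above 8 and 5.37 to 6.97 elsewhere. Plet1 was raised on 20 arrays, all with Scgb1a1 above 8, Chil3 on 7 (5 with Scgb1a1 above 8) and Marco on 2 (1 with Scgb1a1 above 8). Of 8 lung capillary and mesenchyme genes, which heart vessels also express in part, 4 were raised on some array, led by Inmt on 27 arrays (21 with Scgb1a1 above 8) and Car4 on 18 (11 with Scgb1a1 above 8). Inmt fell by 1.72 ± 0.38 at HCN 4 h (limma adjusted p = 0.00173), where 7.35% of all tested probe sets were called. Ednrb rose by 0.92 ± 0.14 at HCN 2 h (limma adjusted p = 1.41e-06), where 25.3% were called. It was also called higher at KCN 1, 2 and 4 h and at HCN 4 h. The 9 skeletal muscle, 4 thyroid and 6 other secretoglobin and BPI fold genes had no raised array. Of 4 measured salivary genes, Amy1 alone was raised, on 38 arrays, 32 of them with Scgb1a1 above 8. The thymocyte genes were raised on at most 3 arrays each, and their summed level was at its highest on an air array with Scgb1a1 not above 8.

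RNA integrity was read from the actin controls, as the 3' signal minus the 5' signal on the log2 scale, where a higher value means more loss of 5' sequence. At 1 h it was 0.480 ± 0.080 in KCN hearts and 0.841 ± 0.172 in saline hearts (SD, n = 4 each). At 2 h it was 0.472 ± 0.083 in KCN hearts and 0.422 ± 0.080 in saline hearts, where saline had 3 arrays. At 4 h it was 0.589 ± 0.026 in KCN hearts and 0.860 ± 0.310 in saline hearts (n = 3 each). KCN lay below saline with no overlap at 1 h, where the member differences were among the largest, and the groups overlapped at 2 h and 4 h. At 8 h it was 0.426 ± 0.057 in KCN hearts and 0.454 ± 0.136 in saline hearts, with overlap. At 24 h it was 0.473 ± 0.131 in KCN hearts and 0.878 ± 0.091 in saline hearts, with no overlap (n = 4 each). After inhalation HCN lay above air with no overlap at 24 h, at 0.979 ± 0.255 in HCN hearts and 0.386 ± 0.045 in air hearts, and the ranges overlapped at 1, 2 and 4 h. Over the 43 arrays above 8, r of Scgb1a1 with the ratio was -0.0469 and rho -0.225, with ratios of 0.317 to 1.95 there and 0.298 to 1.49 on the other arrays. The part of RNA integrity in the member values was not tested.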

How the data were processed

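RNA was extracted with RNeasy Plus Mini kits, and 100 ng per heart was labelled with biotin, as the labels' protocols state, and hybridised to the Affymetrix HT MG-430 PM array. The deposited values are log2 signals per probe set, from 1.83 to 13.94. The submitters' processing notes list MAS5 but neither its version nor its use, and the normalization is not described in the labels. The labels give neither batches nor scan dates. Symbols came from the platform annotation: of 45141 probe sets 28898 carried 1 symbol, 551 several and 15588 none, and 104 were controls, which stayed out of the fits. Each listed gene was followed on the brightest of its probe sets by mean.

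The filter kept a probe set if any group mean exceeded 3.227, the median of all group means. limma 3.58.1 in R 4.3.3 (with data.table version 1.17.8) fitted 1 mean per group with 51 residual degrees of freedom. Moderation by eBayes used a trend on intensity and added 5.53 prior degrees, and tests were two-sided and called at an adjusted p of 0.05. The procedure was tested on simulated data. Where the labels name biological replicates but not separate animals, p-values measure the spread between these arrays. Alternatives were quantile normalization, 2 other filters, a fit for each route, a fit of the 2 compared groups alone, no trend in eBayes, a block on the replicate number, any probe set of a gene, and leaving out each array. For Scgb1a1 they were quantile normalization and limits of 7 and 9.

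Genes set for naming were all members, up to 4 called genes per list and comparison by lowest p, the 12 genes outside the members most like Scgb1a1 and the 12 most like Sftpc, and the 2 highest genes of each list of another tissue. For the lists outside airway and lung epithelium, not all genes set for naming are described above, and genes were called there in both directions. Genes named for how many arrays were raised, and outside these, were picked after their values were seen. Members and lists were chosen with earlier results of these data known. Levels, counts and figures were made in Python 3.11.15 with pandas 2.3.3, numpy 2.4.6, scipy 1.17.1 and matplotlib 3.10.9.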

Additional observations from a re-analysis of the deposited data

Results flagged for a closer look

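In a group of 4 arrays, an array was singled out when its gap to the nearest other array took up more of the group's range than Dixon's critical value allows. Of 120 combinations of a member and a group of 4, 27 were singled out. The critical value assumes 1 cluster of values, whereas the secretory members and Sftpc fell into low and high arrays. A group with 1 array on the other side of that split is readily singled out. The count is therefore a description and is not set against chance. Values of the members on 1 array are not independent of one another, so these flags cluster by array.

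Single low arrays among high ones were most frequent after inhalation. Air 1 h replicate 4 read 5.33 for Scgb1a1, 3.21 for Bpifa1, 5.76 for Scgb3a1 and 5.30 for Scgb3a2. Air 2 h replicate 1 read 2.67 for Scgb1a1, 4.29 for Bpifa1, 4.37 for Scgb3a1, 3.63 for Scgb3a2 and 3.35 for Sftpd. Air 24 h replicate 1 read 3.10 for Scgb1a1, 4.08 for Scgb3a1 and 3.45 for Scgb3a2. HCN 1 h replicate 4 read 2.89 for Scgb1a1, and KCN 8 h replicate 1 read 4.65 for Scgb3a1 and 3.29 for Scgb3a2.

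Saline 24 h replicate 3 was high in a group of low arrays. It read 9.51 for Scgb1a1, 10.51 for Bpifa1, 9.75 for Scgb3a2, 4.48 for Sftpa1 and 3.87 for Sftpd.

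Sftpc was singled out in 7 groups, each time as 1 high array. It read 10.48 at KCN 1 h (replicate 4), 6.21 at KCN 2 h (replicate 4) and 7.80 at KCN 8 h (replicate 4). It read 7.91 at HCN 2 h (replicate 2), 9.30 at HCN 4 h (replicate 1), 10.02 at HCN 24 h (replicate 2) and 7.34 at air 1 h (replicate 3). What these arrays share was not tested.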

How the results depend on the processing

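The counts of arrays with Scgb1a1 above 8 were stable: limits of 7 and 9 and quantile normalization left KCN at 15, saline at 3 and air at 13, and HCN at 10 to 12. Under quantile normalization the 72 differences in member means moved by less than the spread within groups, and 1 changed sign. Of the 552 leave-one-out values of these differences, 40 changed sign. Leaving 1 array out of groups this small cannot move a difference by as much as the spread within them. The size of the leave-one-out moves is therefore not a test of stability.

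The counts of other epithelial genes called were small and depended on the fit. The cause was not tested, except that a stricter filter or fewer groups change the number tested or the spread. At KCN 1 h the count of 1 was 2 with quantile normalization, 0 with no filter, 3 with the stricter filter, 6 in the fit per route and 13 in the fit of only 2 groups. At KCN 2 h the count of 1 was 2 with quantile normalization and 0 with no filter, the stricter filter and the fit of 2 groups. At KCN 4 h the count of 0 was 1 with the stricter filter and per route, and 3 with 2 groups, and at KCN 24 h the count of 2 was 4 with 2 groups. At HCN 2 h the count of 3 was 5 with no filter and with any probe set, and 1 with the stricter filter and with 2 groups. At HCN 4 h the count of 1 was 2 with any probe set and 0 with 2 groups, and at HCN 24 h the count of 0 was 1 with any probe set.

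Leaving out 1 array gave 0 to 0 at KCN 1 h, 0 to 2 at KCN 2 h, 0 to 0 at KCN 4 h and 8 h, 1 to 3 at KCN 24 h, 0 to 0 at HCN 1 h, 2 to 5 at HCN 2 h, 0 to 6 at HCN 4 h and 0 to 1 at HCN 24 h. The 6 at HCN 4 h came without air 4 h replicate 4, and the 5 at HCN 2 h without HCN 2 h replicate 4.

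With the replicate number as a block, the count was 3 at KCN 1 h, 0 at KCN 2 h and 2 at HCN 4 h, and within 1.5 times elsewhere. Correlations of same-numbered arrays ran between -0.142 and 0.318 over 34 pairs. They exceeded 0.1 for every pair in 0 of 9 comparisons, so the numbers were not taken to pair arrays. As a hint from the data, the same-number mean was above the other-number mean in 8 of 9 comparisons, and 14 of 34 cyanide arrays correlated best with their own number, where 9 would if numbers carried nothing.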
